A study of Mus musculus with 6 samples.

Results

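Genes of epidermal differentiation and of the skin barrier were examined in sorted keratinocytes. The cells came from the skin of K15-EGFP transgenic mice, whose enhanced green fluorescent protein (EGFP) is under the control of the keratin 15 (K15) promoter. The genes were 39 listed differentiation, envelope, lipid and junction genes plus every gene whose symbol starts with Sprr. Of the listed genes 28 had a probe set of their own in the platform annotation. The 10 genes Aqp3, Calml3, Cst6, Elovl4, Evpl, Grhl3, Klk7, Ptgs1, Stfa3 and Tgm1 had none there and were not analysed here. Sprr2a1 was covered by 2 probe sets that the annotation gives to the 3 copies Sprr2a1, Sprr2a2 and Sprr2a3 together, so their values belong to no single copy. A further 10 Sprr genes matched by name. This gave 48 probe sets for 39 genes, with the Sprr2a copies counted as 1, of 12422 probe sets and 8251 named genes on the array.

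The groups were 3 samples of EGFP-high keratinocytes and 3 samples of EGFP-negative keratinocytes. Both gates held cells positive for α6 integrin, and the transgene was present in all mice used. The K15 promoter is known to mark the hair follicle bulge, where follicle stem cells reside, so EGFP marks the cells in which that promoter is active and not a lineage. The labels give no strain background, sex, age, hair cycle stage or number of animals, so the p-values reflect only how far these samples vary, and some of that variation may be technical.

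Keratinocytes leave the basal layer, build desmosomes and keratin bundles in the spinous layers, and then assemble a cornified envelope under the plasma membrane. Transglutaminases cross-link envelope precursors such as involucrin, loricrin, periplakin, annexin A1 and the small proline-rich proteins encoded by the Sprr genes, and lipids are added outside. Gap junctions made of connexins couple living keratinocytes, and claudins seal tight junctions in the granular layer. In the follicle the same programme runs in the upper part near the skin surface, whereas bulge cells are undifferentiated.

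Values are the authors' linear intensities, 1 per probe set and array, and log2 differences are EGFP-high minus EGFP-negative after 19.3 was added to each intensity. Differences were tested with limma across 7453 probe sets above a brightness filter, with Benjamini-Hochberg adjustment, and a probe set was called at an adjusted p under 0.05. In all 387 probe sets were called, 5.19% of those tested. Array medians lay between 69.55 and 76.05, and correlations between profiles were 0.922 to 0.948 for arrays of the same group and 0.839 to 0.905 for arrays of different groups. Background was read from 15 bacterial control probe sets, whose 95th percentile lay between 28.25 and 43.95 on the EGFP-high arrays and between 25.9 and 32.64 on the EGFP-negative arrays. The bulge surface marker Cd34 read 1338.8, 1579 and 1450.4 in EGFP-high replicates 1, 2 and 3, against 34.4, 29.4 and 40.9 in EGFP-negative replicates 1, 2 and 3. The probe sets of Krt15 and Krt14 were at or below the control level on all 6 arrays, and that of Krt5 on 5 of them, so these genes gave no check of the sort.

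Among the differentiation and barrier genes the called differences ran in 1 direction. Of 37 tested probe sets 8 were lower in EGFP-high cells and 0 were higher (limma, Benjamini-Hochberg), where 2.17% of all tested probe sets were called lower and 3.02% higher. The members were chosen with earlier results of these data known, so these counts and shares are set side by side as a description only. At an unadjusted p under 0.05 the counts were 15 lower and 1 higher, where 8.68% of all tested probe sets were lower and 8.47% higher. The 8 probe sets belong to the connexin gene Gja1 (both probe sets), the Sprr2a copies (both), and Sfn, Pou2f3, Cldn1 and Anxa1 (1 each). With the replicate number as a block, since arrays of the same number deviated together, 12 were lower and 0 higher, where 10.4% of all tested probe sets were called, 5.31% lower and 5.13% higher. With no filter on dim probe sets 6 members were called, all lower, where 2.63% of all 12422 probe sets were called, 1.05% lower and 1.59% higher. With the block and no filter 9 were called, all lower, where 4.49% of all were called, 2.09% lower and 2.41% higher. The 4 added by the block were the other 2 probe sets of Anxa1, that of Ppl and that of Sprr2b. Of these 4, Ppl alone was also called with the block and no filter (adjusted p = 0.0201), and the others had adjusted p of 0.0769, 0.0886 and 0.106 there (limma). The median log2 difference over the 31 tested member genes, each taken from the probe set brightest on average, was -0.24, and over all tested probe sets it was -0.0017. Without a filter the median over all 48 member probe sets was -0.22, and over all 12422 probe sets 0.012. In bulk RNA of sorted cells, fewer cells of a type and less RNA per cell cannot be told apart.

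Single arrays weighed on this count. Leaving out EGFP-high replicate 3 left 2 lower, leaving out replicate 2 of the same group left 5, and leaving out EGFP-negative replicate 3 left 4. Leaving out the arrays numbered 1 in both groups gave 11 lower and 1 higher. The groups did not overlap for 13 of the 48 probe sets with EGFP-high lower, against 8.45% of all probe sets, and for 1 with EGFP-high higher, against 9.97%.

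**Figure D1:**
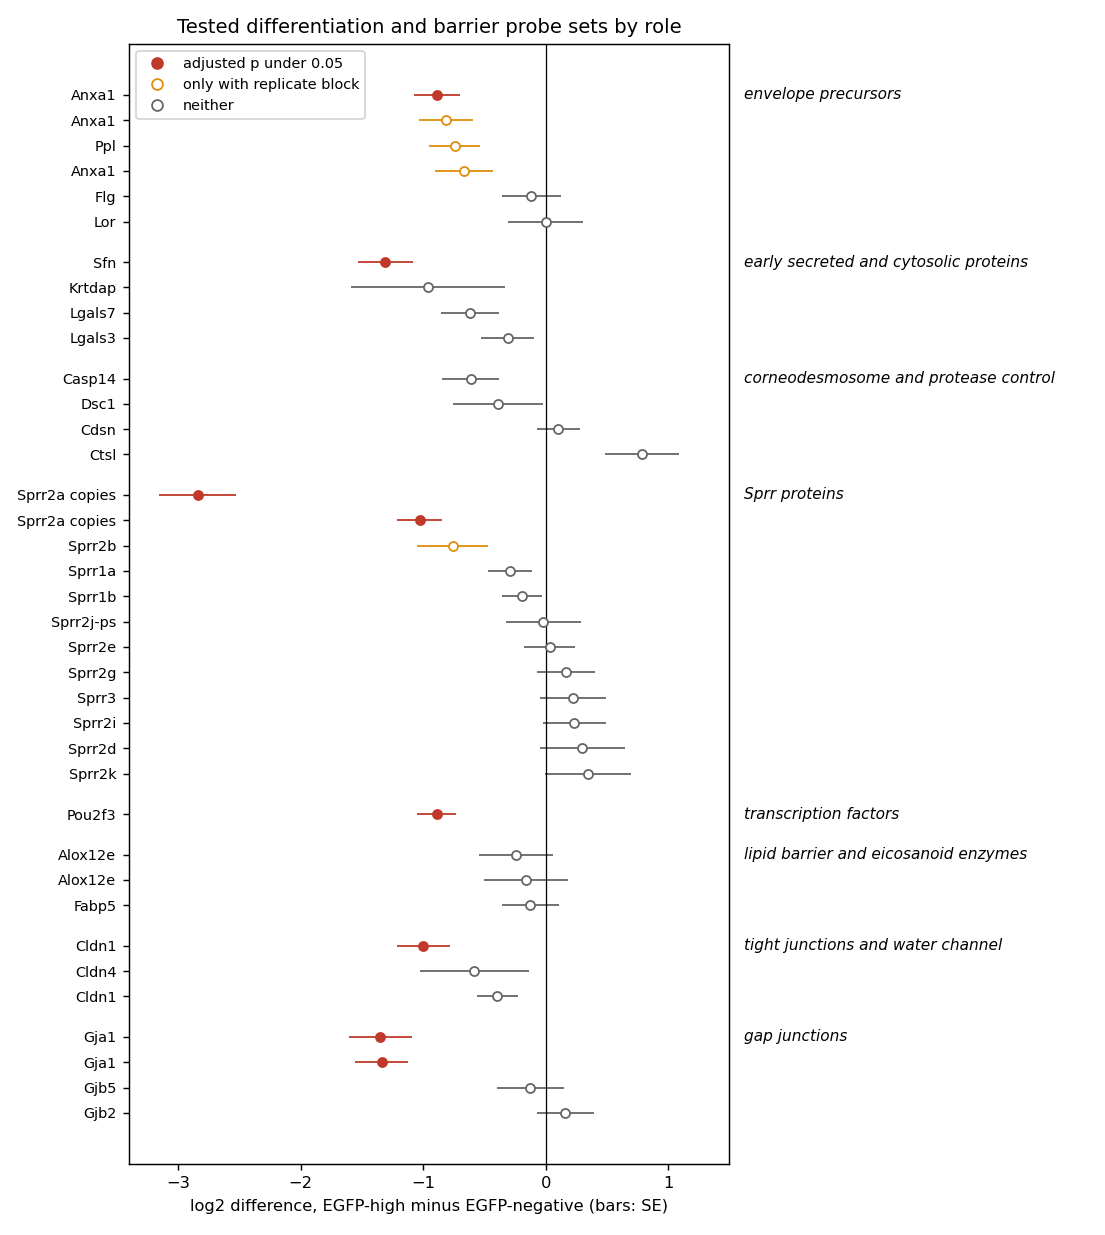
Each point is the log2 difference of 1 tested probe set, EGFP-high minus EGFP-negative, with its SE as a bar, grouped by role (n = 3 arrays a group). Filled red points are the 8 called probe sets, and open orange points are the 4 called only with the replicate number as a block. All 12 lie left of 0, and most Sprr probe sets lie within 1 log2 unit of 0.

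Probe sets of early differentiation genes had a lower median difference than those of the late, cornifying stage, and this difference between stages was not tested. Genes were put in the stages by general knowledge, with earlier results of these data known. Of 14 tested early probe sets 3 were called lower (Sfn, Pou2f3 and Anxa1), and their median log2 difference was -0.64. Of 15 tested late probe sets 2 were called lower, both of the Sprr2a copies, and the median was -0.02. The Sprr2 subfamily supplied 9 of these 15 probe sets and 8 of the 13 tested late genes, with a median of 0.10 over its genes. The late medians therefore rest largely on 1 gene family. Of 4 tested gap junction probe sets 2 were called lower, both of Gja1, and the median was -0.73. With each gene counted once, the medians were -0.50 over 12 early genes, -2.78e-05 over 13 late genes and -0.12 over 3 gap junction genes. None of the 3 stages had a probe set called higher (limma), nor one higher at an unadjusted p under 0.05 (0, 0 and 0). Over all tested probe sets 2.17% were called lower and 3.02% higher, and 8.47% were higher at an unadjusted p under 0.05 (limma). Among the genes of these stages, 11 of 12 early genes, 7 of 13 late genes and 2 of 3 gap junction genes had a difference below 0, as did 50.2% of all tested probe sets.

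Gja1 was lower in EGFP-high cells on both of its probe sets. It encodes connexin 43, the gap junction protein of basal and lower spinous keratinocytes. Its first probe set read 256.1, 219.3 and 319 in EGFP-high replicates 1, 2 and 3, against 593.8, 606.7 and 916.7 in EGFP-negative replicates 1, 2 and 3. The highest EGFP-high value was below the lowest EGFP-negative value. Gja1 fell by 1.34 on the log2 scale on this probe set (SE 0.21, adjusted p = 0.00733, limma), and the call held without any 1 of the 6 arrays (adjusted p 0.0139 to 0.0349).

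The second Gja1 probe set read 2140.3, 1074.4 and 1635.7 in EGFP-high replicates 1, 2 and 3, against 3720.4, 3422 and 4995.6 in EGFP-negative replicates 1, 2 and 3. It averaged 1617 ± 533 in EGFP-high cells and 4046 ± 836 in EGFP-negative cells (SD, n = 3 each), and its groups did not overlap either. Its log2 difference was -1.35 (SE 0.26, adjusted p = 0.0168, limma). This second call was lost without replicate 3 of the EGFP-high cells or EGFP-negative replicate 3 (adjusted p up to 0.0667) and with quantile normalization (0.0507). Both Gja1 probe sets also carry suffixes that the array's maker gives to probe sets that may share signal with other transcripts or depart from its selection rules, so neither is among the 3 members called when such probe sets are left out.

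The other 2 connexins of the list did not pass the threshold. Gjb2 encodes connexin 26, which is prominent in differentiating and activated epidermis. It read 48.6, 69.9 and 64.7 in EGFP-high replicates 1, 2 and 3, against 56.4, 62.9 and 39.1 in EGFP-negative replicates 1, 2 and 3 (log2 difference 0.16, SE 0.23, adjusted p = 0.785, limma). Gjb5 encodes another epidermal connexin and read 461, 222.3 and 303.3 in EGFP-high replicates 1, 2 and 3, against 464.9, 296 and 298 in EGFP-negative replicates 1, 2 and 3 (log2 difference -0.12, SE 0.27, adjusted p = 0.872, limma). For both genes the groups overlapped.

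The upstream sequence of Gja1 is shown because both of its probe sets were called. It is the 250 bases before the annotated start in RefSeq on GRCm38.p6, with the single match to the AP-1 motif TGANTCA in capitals.
Gja1 (chr10:56377050-56377299, plus strand): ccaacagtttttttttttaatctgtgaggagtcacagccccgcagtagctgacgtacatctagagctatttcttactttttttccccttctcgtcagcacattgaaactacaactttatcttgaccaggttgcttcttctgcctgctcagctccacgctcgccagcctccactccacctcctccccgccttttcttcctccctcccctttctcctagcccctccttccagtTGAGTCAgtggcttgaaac
The match ends 13 bases before the start, and the window holds neither of the other motifs marked below for the Sprr2 genes. The AP-1 motif is read by Fos and Jun factors, and 6.75% of the 32851 upstream windows of this length in the same table hold it. A match is a description of the letters and not a site.

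Tight junction genes were represented by Cldn1 and Cldn4. Cldn1 encodes claudin 1, which the epidermal water barrier requires. On the first of its 2 probe sets Cldn1 read 176.7, 129 and 106.1 in EGFP-high replicates 1, 2 and 3, against 323.1, 233.6 and 315.3 in EGFP-negative replicates 1, 2 and 3, with no overlap. Cldn1 fell by 0.997 on the log2 scale there (SE 0.21, adjusted p = 0.0291, limma). The call was lost without replicate 2 or 3 of the EGFP-high cells, and without replicate 1 or 3 of the EGFP-negative cells (adjusted p up to 0.122), and with no filter on dim probe sets (0.0537).

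The other Cldn1 probe set averaged 207 ± 30.1 in EGFP-high cells and 277 ± 25.6 in EGFP-negative cells (SD, n = 3 each). Its groups did not overlap, but it was not called (log2 difference -0.39, SE 0.17, adjusted p = 0.273, limma). Cldn4, another claudin of the granular layer, read 181.3, 137.8 and 161.1 in EGFP-high replicates 1, 2 and 3, against 170.5, 141.3 and 604.4 in EGFP-negative replicates 1, 2 and 3. EGFP-negative replicate 3 alone was high, and the gene was not called (adjusted p = 0.585, limma).

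Pou2f3 was the only gene of the transcription factor group with a probe set. Pou2f3, also called Skn-1a, is a POU domain factor of differentiating epidermis that binds octamer sequences. It read 305.6, 289 and 262.9 in EGFP-high replicates 1, 2 and 3, against 477.4, 601.2 and 565 in EGFP-negative replicates 1, 2 and 3. All 3 EGFP-high values were below all EGFP-negative values. Pou2f3 fell by 0.89 on the log2 scale (SE 0.16, adjusted p = 0.0119, limma), a call lost without replicate 3 of the EGFP-high cells or EGFP-negative replicate 2 (adjusted p up to 0.0665).

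Sfn and 3 further genes encode early secreted or cytosolic proteins that were tested, and Sfn was called. Sfn encodes 14-3-3 sigma, a cell cycle brake induced as keratinocytes leave the stem cell state. It read 2078.5, 1727.1 and 1988.1 in EGFP-high replicates 1, 2 and 3, against 3487.5, 4836.5 and 6552.9 in EGFP-negative replicates 1, 2 and 3. The EGFP-high values were close together and below all EGFP-negative values, which spread over a wider range. Sfn fell by 1.31 on the log2 scale (SE 0.23, adjusted p = 0.0106, limma), and the call was lost when replicate 2 (adjusted p = 0.0531) or replicate 3 (0.0506) of the EGFP-high cells was left out.

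Krtdap, a secreted peptide of the spinous layer, differed most between arrays of the same group. It read 5040.9, 1757.9 and 647.9 in EGFP-high replicates 1, 2 and 3, against 5275.8, 3647.1 and 2258.9 in EGFP-negative replicates 1, 2 and 3. EGFP-high was lower within each number, by log2 values of -0.07, -1.04 and -1.77 for numbers 1, 2 and 3, but the groups overlapped. The gene was not called (log2 difference -0.96, SE 0.63, adjusted p = 0.508, and 0.0619 with the replicate number as a block, limma).

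The galectin genes were not called. Lgals7 encodes galectin 7, a marker of stratified epithelia, and read 2967.3, 1986.7 and 2286.7 in EGFP-high replicates 1, 2 and 3, against 2674.6, 3884.5 and 4706.3 in EGFP-negative replicates 1, 2 and 3 (log2 difference -0.62, adjusted p = 0.214, limma). EGFP-high replicate 1 exceeded EGFP-negative replicate 1, and without both arrays of number 1 the adjusted p was 0.0188. Lgals3, which encodes galectin 3, averaged 2527 ± 492 in EGFP-high cells and 3157 ± 803 in EGFP-negative cells (SD, n = 3 each, adjusted p = 0.545, limma). Dmkn, the secreted peptide dermokine, lay below the filter and was not tested.

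**Figure D2:**
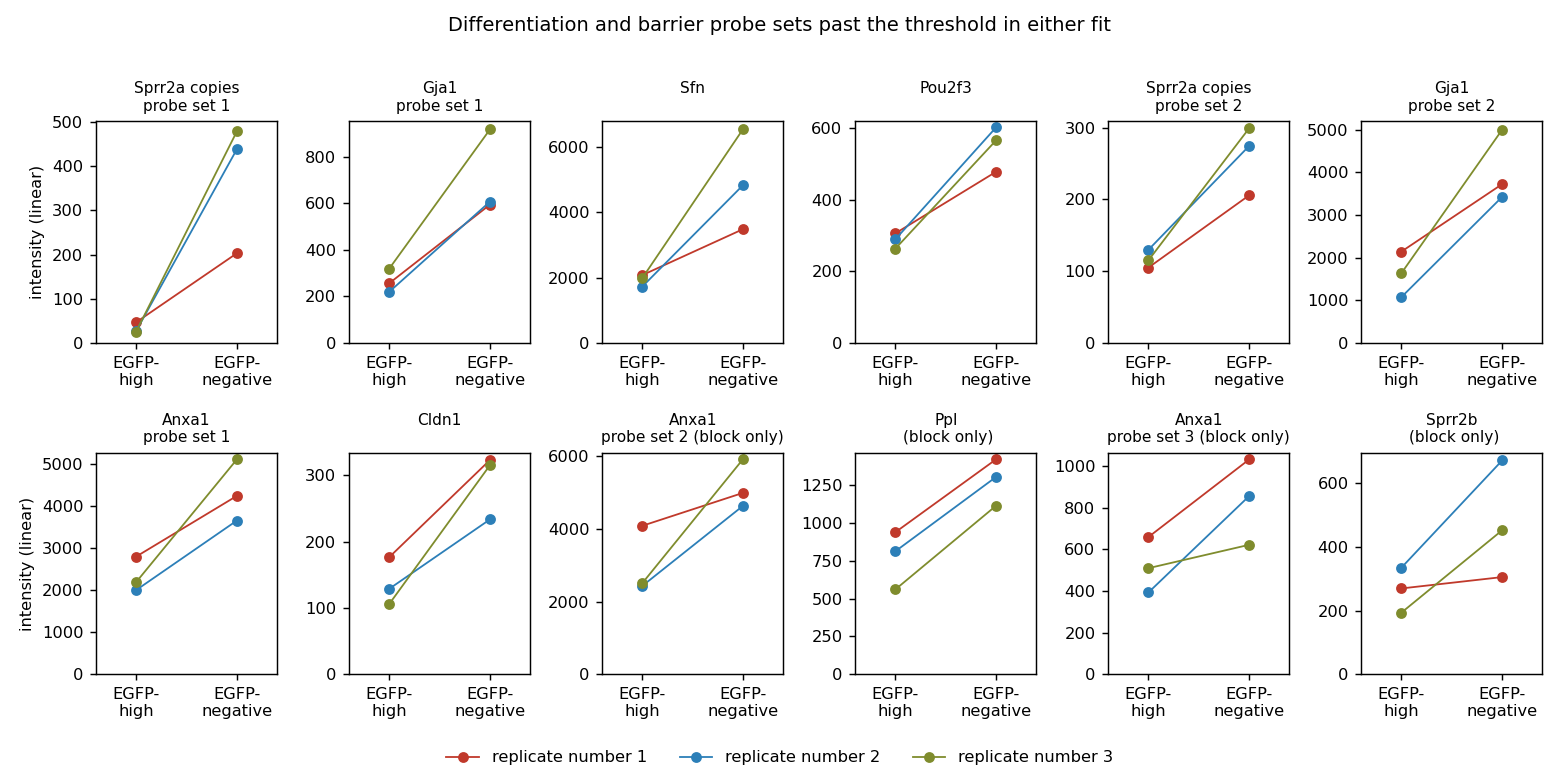
Each panel shows the linear intensity of 1 probe set on the 6 arrays, EGFP-high on the left and EGFP-negative on the right, with a line joining arrays of the same replicate number. These are the 8 probe sets called in the fit without the block and the 4 called only with it. In every panel each of the 3 lines is lower at the EGFP-high end.

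Among precursors of the cornified envelope, Anxa1 was called and Lor and Flg were not. Anxa1 encodes annexin A1, a calcium-dependent membrane protein that transglutaminases cross-link into the envelope. Its first probe set read 2802.1, 2005.6 and 2195.7 in EGFP-high replicates 1, 2 and 3, against 4245.9, 3658.7 and 5114 in EGFP-negative replicates 1, 2 and 3. The groups did not overlap, and Anxa1 fell by 0.89 on the log2 scale (SE 0.19, adjusted p = 0.0278, limma).

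The other 2 Anxa1 probe sets had log2 differences of -0.81 (adjusted p = 0.0759, and 0.0197 with the block) and -0.66 (adjusted p = 0.182, and 0.0424 with the block, limma). The call of the first probe set was lost without replicate 2 or 3 of the EGFP-high cells, without replicate 1 or 3 of the EGFP-negative cells (adjusted p up to 0.131) with quantile normalization (0.0954) and with no filter on dim probe sets (0.0712). All 3 Anxa1 probe sets carry suffixes of the same kind as those of Gja1.

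Ppl encodes periplakin, which links the envelope to keratin filaments. It read 936.7, 811.1 and 559.7 in EGFP-high replicates 1, 2 and 3, against 1417, 1301 and 1111.3 in EGFP-negative replicates 1, 2 and 3, with no overlap. Its log2 difference was -0.74 (SE 0.21, adjusted p = 0.0892, limma), and it was called with the replicate number as a block (adjusted p = 0.0082, block SE 0.13).

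Lor encodes loricrin, the main envelope protein of the granular layer. The tested Lor probe set carries a suffix of the same kind as those of Gja1. It read 332.4, 311.6 and 181.2 in EGFP-high replicates 1, 2 and 3, against 257, 403.4 and 180.5 in EGFP-negative replicates 1, 2 and 3. Its log2 differences within numbers 1, 2 and 3 were 0.35, -0.35 and 0.01, and the means were 275 ± 82 in EGFP-high cells and 280 ± 113 in EGFP-negative cells (SD, n = 3 each; SE of the log2 difference 0.31). Flg, which encodes filaggrin, the keratin-bundling protein of the granular layer, read 80.3, 126.8 and 81.6 in EGFP-high replicates 1, 2 and 3, against 127.3, 117.6 and 73.7 in EGFP-negative replicates 1, 2 and 3 (log2 difference -0.12, SE 0.24, adjusted p = 0.866, limma).

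The involucrin gene Ivl read 16.5 to 18.6 in EGFP-high cells and 14.1 to 18.8 in EGFP-negative cells, at or below the control level on all 6 arrays, and was not tested. Of the transglutaminase genes, Tgm2 was at or below that level on all arrays and Tgm3 on 4 of 6. Both genes lay below the brightness filter and were not tested. The second probe sets of Lor and Flg were likewise below the filter.

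The Sprr probe sets did not move together. The Sprr genes encode small proline-rich envelope proteins and lie in a cluster with Lor, Ivl and Flg on mouse chromosome 3, the epidermal differentiation complex. Of 12 tested Sprr probe sets 2 were called lower, both of the Sprr2a copies, and 0 higher (limma). Over all tested probe sets 2.17% were called lower and 3.02% higher. At an unadjusted p under 0.05, 3 Sprr probe sets were lower and 0 higher, against 8.68% and 8.47% of all tested (limma). The median log2 difference over the 11 tested Sprr genes was 0.03.

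The first Sprr2a probe set read 46.8, 27.1 and 25.8 in EGFP-high replicates 1, 2 and 3, against 203, 438.6 and 479 in EGFP-negative replicates 1, 2 and 3. On EGFP-high replicates 2 and 3 it was below the control level, so the size of its fall depends on the constant added. The Sprr2a copies fell by 2.84 on the log2 scale on this probe set (SE 0.31, adjusted p = 0.00131, limma). Its log2 difference was -1.97 with a constant 4 times as large, and -3.26 when the constant was made 4 times smaller. The call held without any 1 of the 6 arrays (adjusted p 0.00037 to 0.0109).

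The second Sprr2a probe set read 104.9, 129.7 and 115 in EGFP-high replicates 1, 2 and 3, against 205.6, 274.4 and 299 in EGFP-negative replicates 1, 2 and 3. It lay above the control level on all arrays and its groups did not overlap. Its log2 difference was -1.03 (SE 0.18, adjusted p = 0.0125, limma), and this call was lost without EGFP-high replicate 3, and without replicate 2 or 3 of the EGFP-negative cells (adjusted p up to 0.0608). Both Sprr2a probe sets carry suffixes of the same kind as those of Gja1. That of the second marks probe sets that may share signal within a family. Every other tested Sprr2 probe set except that of Sprr2d carries the same suffix as the second. Values of these Sprr2 genes may therefore hold signal of related genes.

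Sprr2b, the neighbour of the Sprr2a copies on the chromosome, read 269.4, 334.6 and 193.7 in EGFP-high replicates 1, 2 and 3, against 305, 670.5 and 451.7 in EGFP-negative replicates 1, 2 and 3. EGFP-high was lower within each number, but the groups overlapped. Its log2 difference was -0.76 (SE 0.29, adjusted p = 0.212, and 0.0494 with the replicate number as a block, limma).

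The other tested Sprr2 genes had log2 differences between -0.02 for Sprr2j-ps and 0.34 for Sprr2k, and none was called (lowest adjusted p = 0.693, for Sprr2k, limma). Sprr2e read 863.2, 1336 and 920.2 in EGFP-high replicates 1, 2 and 3, against 808.8, 1127.6 and 1087.6 in EGFP-negative replicates 1, 2 and 3 (log2 difference 0.03, SE 0.21). Sprr2h was the single gene of the list whose groups did not overlap with EGFP-high higher. It read 54.3, 58.9 and 48.4 in EGFP-high replicates 1, 2 and 3, against 18.9, 8.7 and 26.8 in EGFP-negative replicates 1, 2 and 3. Sprr2h lay below the filter, and in a fit of all 12422 probe sets without a filter its log2 difference was 0.99 (adjusted p = 0.0915, limma). On EGFP-negative replicates 1 and 2 Sprr2h was below the control level, so the size of this difference depends on the constant added.

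Outside the Sprr2 genes, Sprr1b read 1559.4, 2106.6 and 1676.3 in EGFP-high replicates 1, 2 and 3, against 1896.9, 2093 and 2078.3 in EGFP-negative replicates 1, 2 and 3 (log2 difference -0.19, SE 0.16, adjusted p = 0.624, limma). This Sprr1b probe set carries a suffix of the same kind as those of Gja1. The other Sprr1b probe set was at or below the control level on all 6 arrays and was not tested. Sprr1a averaged 271 ± 6.76 in EGFP-high cells and 341 ± 77.7 in EGFP-negative cells (SD, n = 3 each). The Sprr1a groups did not overlap, yet the gene was not called (log2 difference -0.29, adjusted p = 0.48, limma). Sprr3 had a log2 difference of 0.22 (adjusted p = 0.744, limma). Sprr2c-ps and Sprr2f were below the filter.

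**Figure D3:**
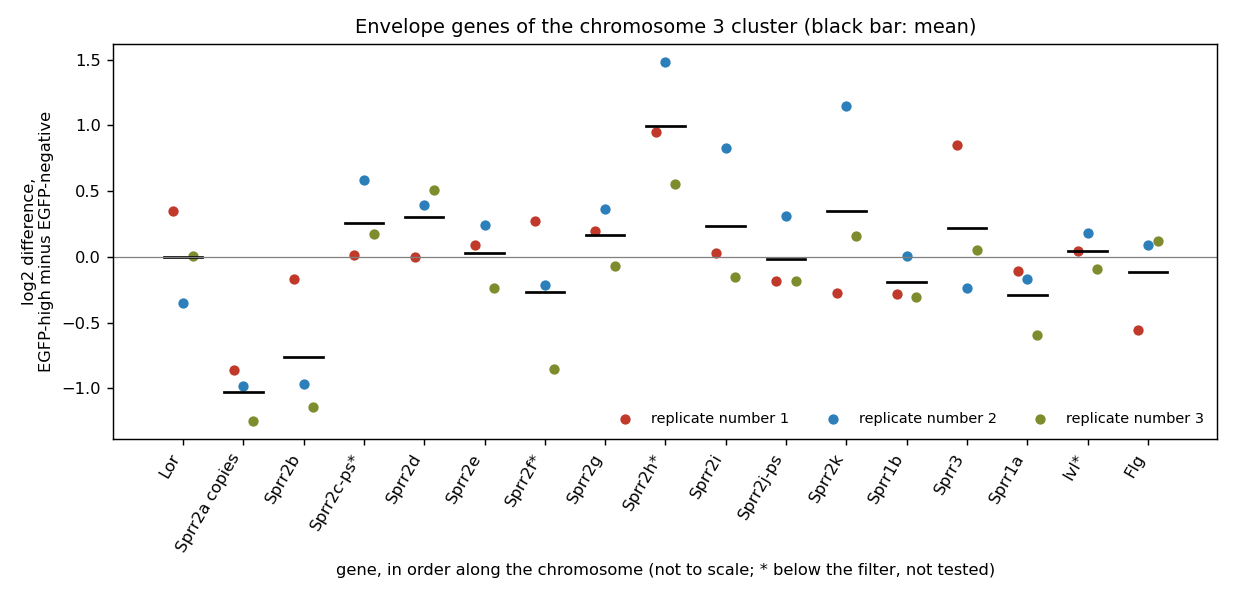
Log2 differences, EGFP-high minus EGFP-negative, for the envelope genes of the chromosome 3 cluster in their order along the chromosome, spacing not to scale. Each point is 1 replicate number, the black bar is the mean, and an asterisk marks genes below the filter. The Sprr2a copies, shown by the probe set with a mean of -1.03, lie below 0 for all 3 numbers, as do Sprr2b and Sprr1a. Sprr2h and Sprr2c-ps, both below the filter, lie above 0 for all 3.

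Upstream sequences of 4 Sprr2 genes are shown because the probe sets of these closely related neighbours differed in their values. Those of the Sprr2a copies, Sprr2b and Sprr2e may share signal within the family, and that of Sprr2h lay below the filter. A difference between the genes themselves is therefore not settled. The sequences are the 250 bases before the annotated start in RefSeq on GRCm38.p6, all on the plus strand. Capitals mark matches to the TATA box TATAAA, the AP-1 motif TGANTCA and the octamer ATGCAAAT, each searched on both strands with no overlap between them in these windows. The octamer appears here as its reverse complement.
Sprr2a1 (chr3:92215585-92215834, plus strand): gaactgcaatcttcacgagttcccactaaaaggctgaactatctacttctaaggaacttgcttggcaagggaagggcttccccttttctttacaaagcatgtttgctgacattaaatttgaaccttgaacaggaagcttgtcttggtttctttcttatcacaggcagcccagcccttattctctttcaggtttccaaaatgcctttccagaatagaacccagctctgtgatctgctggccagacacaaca
Sprr2b (chr3:92316455-92316704, plus strand): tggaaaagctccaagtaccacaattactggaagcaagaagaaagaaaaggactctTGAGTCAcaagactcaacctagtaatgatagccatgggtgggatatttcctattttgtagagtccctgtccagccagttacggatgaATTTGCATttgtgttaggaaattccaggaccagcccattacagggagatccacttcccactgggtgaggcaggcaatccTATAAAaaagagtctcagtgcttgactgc
Sprr2e (chr3:92351893-92352142, plus strand): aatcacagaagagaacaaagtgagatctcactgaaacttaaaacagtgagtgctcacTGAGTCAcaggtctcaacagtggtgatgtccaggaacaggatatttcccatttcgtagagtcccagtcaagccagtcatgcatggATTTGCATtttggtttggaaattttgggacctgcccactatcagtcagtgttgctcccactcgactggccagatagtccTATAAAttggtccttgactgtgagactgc
Sprr2h (chr3:92385435-92385684, plus strand): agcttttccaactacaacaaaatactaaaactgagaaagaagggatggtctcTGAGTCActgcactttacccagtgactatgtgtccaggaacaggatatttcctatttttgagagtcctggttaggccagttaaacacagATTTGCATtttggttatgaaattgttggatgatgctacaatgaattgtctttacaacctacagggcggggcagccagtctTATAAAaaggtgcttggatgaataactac
Of the 10 available Sprr2 windows, 7 held all of these motifs, those of Sprr2b, Sprr2d, Sprr2e, Sprr2f, Sprr2h, Sprr2i and Sprr2k. The TATA box began 29 bases before the start in each of the 7, and the octamer began 108 to 112 bases before it. The windows of the 3 Sprr2a copies held none of the motifs, and those of Sprr2a1 and Sprr2a2 were identical (100% of bases), while that of Sprr2a3 shared 26.4% of bases with them. Windows were compared position by position without gaps, so an offset between annotated starts would lower the shared percentage. Whether the Sprr2a windows cover the same region as the other Sprr2 windows was not tested. The missing motifs therefore need not be a difference between promoters.

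Among all 32851 windows 12.4% held the TATA box, 6.75% the AP-1 motif and 1.6% the octamer. Among the 36 windows of 33 matched member genes, 17 held the TATA box, 18 the AP-1 motif and 7 the octamer, the last in Sprr2 genes only. Sprr2b and Sprr2e shared 55.2% of bases position by position, and Sprr2d and Sprr2e shared 88%. The grainyhead factor motif AACCNGTT matched 1 member window, against 1.79% of all windows. The Ets motif CCGGAA likewise matched 1, against 12% of all. The motif CCACACCC of Kruppel-like factors matched 3, against 3.2% of all. The Gata motif AGATAA matched 1, that of Gja1, against 9.99% of all. An interferon response element matched 0 member windows, against 2.98% of all windows.

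Genes of corneodesmosomes and of protease control were not called. Ctsl, which encodes cathepsin L, a lysosomal protease needed for normal hair follicle cycling, was the sole tested member with a higher value at an unadjusted p under 0.05. It read 328.9, 726.9 and 822.5 in EGFP-high replicates 1, 2 and 3, against 320.5, 324.4 and 346.8 in EGFP-negative replicates 1, 2 and 3. EGFP-high replicate 1 lay within the EGFP-negative range, and the other EGFP-high arrays were above it. The log2 difference was 0.78 (SE 0.30, adjusted p = 0.214, limma), and without EGFP-high replicate 1 it was 1.18 (adjusted p = 0.00436).

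Casp14 encodes caspase 14, which takes part in filaggrin breakdown in cornifying cells. It read 193.9, 112.6 and 99.1 in EGFP-high replicates 1, 2 and 3, against 194.6, 195.7 and 239.6 in EGFP-negative replicates 1, 2 and 3. The groups did not overlap, but EGFP-high replicate 1 lay just below the lowest EGFP-negative value. The log2 difference was -0.61 (SE 0.24, adjusted p = 0.215, limma), and without EGFP-high replicate 1 it was -0.87 (adjusted p = 0.0298).

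Cdsn, the corneodesmosin gene, read 342.3, 357.8 and 251.4 in EGFP-high replicates 1, 2 and 3, against 272.9, 313.4 and 287.5 in EGFP-negative replicates 1, 2 and 3 (adjusted p = 0.831, limma). Dsc1, the suprabasal desmocollin, averaged 48.5 ± 39.6 in EGFP-high cells and 61.2 ± 9.6 in EGFP-negative cells (SD, n = 3 each, adjusted p = 0.667, limma). For both genes the groups overlapped.

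Barrier lipid and eicosanoid genes were not called either. Alox12e, a skin lipoxygenase gene of the mouse, read 828.3, 467 and 315.7 in EGFP-high replicates 1, 2 and 3, against 559.8, 697.8 and 531.5 in EGFP-negative replicates 1, 2 and 3 on one probe set (log2 difference -0.24, adjusted p = 0.754, limma), and its other probe set had a log2 difference of -0.16. Fabp5, the epidermal fatty acid binding protein, read 255, 142.1 and 163.1 in EGFP-high replicates 1, 2 and 3, against 242, 162.4 and 201.4 in EGFP-negative replicates 1, 2 and 3 (adjusted p = 0.848, limma). Both genes had their highest EGFP-high value on replicate 1. Alox12b, a lipoxygenase of the ceramide pathway, was below the filter.

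The suprabasal keratins Krt1, Krt10 and Krt77 were highest on the same EGFP-high array as Krtdap, Casp14 and Alox12e. These members were picked as examples. Among the EGFP-high arrays, other tested members were lowest on replicate 1, such as Sprr1b, Sprr2e, Sprr2i and Flg. Among the EGFP-negative arrays, Krt1, Krt10, Krt77 and Krtdap were also highest on replicate 1. Krt1, the spinous layer type II keratin, read 3468.1, 711.5 and 570.2 in EGFP-high replicates 1, 2 and 3, against 5336.9, 2939.1 and 1824.5 in EGFP-negative replicates 1, 2 and 3. Its partner Krt10 read 8799.4, 4399.2 and 2423.9 in EGFP-high replicates 1, 2 and 3, against 9986.4, 8037.5 and 8705.3 in EGFP-negative replicates 1, 2 and 3. In both, EGFP-high replicate 1 lay far above the other EGFP-high arrays. Krt2, a keratin of the upper epidermis, did not share this pattern, and read 196.5, 143.5 and 185.3 in EGFP-high replicates 1, 2 and 3, against 148.7, 194.3 and 186.1 in EGFP-negative replicates 1, 2 and 3 (log2 difference -0.01).

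The 4 suprabasal markers on the array (Krt1, Krt10, Krt2 and Krt77, all above the control level on at least 1 array) summed to 3959 to 17975 in EGFP-high cells and 13742 to 21588 in EGFP-negative cells. EGFP-high replicate 1 alone, at 17975, lay within the EGFP-negative range. Of these 4 markers 0 were called (limma; 0 higher and 1 lower at an unadjusted p under 0.05), and with the block Krt1 (adjusted p = 0.00708) and Krt77 (adjusted p = 0.0357) were lower. The part of suprabasal cells in the differences of the differentiation genes was not tested. Without both arrays of number 1, Gja1 had log2 differences of -1.43 and -1.63 on its first and second probe sets, Sfn -1.59, Pou2f3 -1.03, and the Sprr2a copies -3.38 and -1.11, each called.

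**Figure D4:**
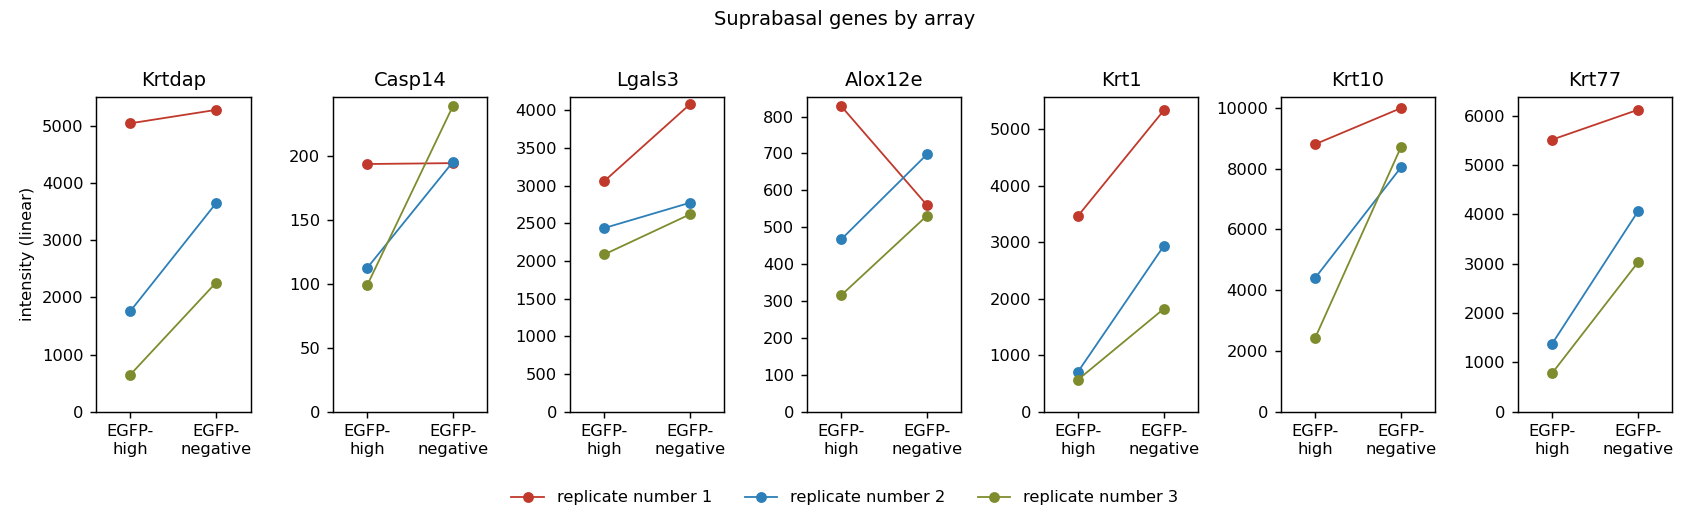
Linear intensities of 4 differentiation genes and of the suprabasal keratins Krt1, Krt10 and Krt77 on the 6 arrays. EGFP-high is on the left and EGFP-negative on the right, with lines joining the same replicate number. The 4 differentiation genes were picked as examples. Among the EGFP-high arrays, other members, such as Sprr2e, were lowest on replicate 1. On EGFP-high replicate 1 Krtdap read 5040.9, against 1757.9 and 647.9 on the other EGFP-high arrays, and the 3 keratins were likewise highest there.

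Among other genes of the same programme, 117 of 170 listed genes had a probe set and 82 were tested. Of these 6 were higher and 4 lower, and with the block 6 were higher and 14 lower. Over all tested probe sets 3.02% were called higher and 2.17% lower, and with the block 5.13% and 5.31%. Counts of 1 or 2 in a list are too few to set apart from these shares. The count of 10 rested on single arrays. It was 4 without replicate 2 or 3 of the EGFP-high cells or replicate 2 of the EGFP-negative cells. It was 6 without replicate 1 or 3 of the EGFP-negative cells, and 16 without EGFP-high replicate 1. Without 1 array, 191 to 499 of all tested probe sets were called, against 387 with every array. By list, 0 higher and 2 lower of 20 envelope and cornification genes, 1 higher and 0 lower of 19 lipid genes, 2 higher and 2 lower of 27 regulators, 1 higher and 0 lower of 5 junction and channel genes, and 2 higher and 0 lower of 11 annexins and galectins were called (limma). At an unadjusted p under 0.05 the counts were 2 higher and 5 lower, 1 and 4, 2 and 4, 1 and 0, and 2 and 6 in the same order. Of all tested probe sets 8.47% were higher and 8.68% lower at that level. With the block the counts were 0 higher and 4 lower, 1 and 3, 2 and 5, 1 and 0, and 2 and 2. The genes called with the block alone were all lower, and were Emp1 and Krt1 of the envelope list, Scd1, Hmgcs1 and Abhd5 of the lipid list, Junb, Cebpa and Ppara of the regulators, and Anxa2 and Anxa4 of the annexins (adjusted p 0.00395 to 0.0331, limma).

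The regulators called included factors in both directions. Gata3, a zinc finger factor of epidermal barrier formation and of the inner root sheath, read 427.8, 476.1 and 460.9 in EGFP-high replicates 1, 2 and 3, against 1571.5, 2151.6 and 1955.8 in EGFP-negative replicates 1, 2 and 3. Gata3 fell by 2.001 on the log2 scale (SE 0.16, adjusted p = 0.00026, limma). Pou3f1, a POU factor of suprabasal cells, fell by 0.87 (adjusted p = 0.0487).

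Dlx3, a homeobox factor of differentiating epidermis and hair, read 125.7, 160.8 and 169.2 in EGFP-high replicates 1, 2 and 3, against 14.5, 20.2 and 36.3 in EGFP-negative replicates 1, 2 and 3. Dlx3 rose by 2.02 on the log2 scale (adjusted p = 0.00189, limma), a size that depends on the constant added because 2 of the EGFP-negative values were below the control level. The vitamin D receptor gene Vdr rose by 1.35 (adjusted p = 0.0486).

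The remaining called genes of these lists had other roles. Ly6d, a surface protein of keratinocytes, averaged 1444 ± 791 in EGFP-high cells and 4015 ± 536 in EGFP-negative cells (SD, n = 3 each), and fell by 1.58 on the log2 scale (adjusted p = 0.0215, limma). The desmosomal plakophilin gene Pkp1 fell by 0.90. Lgals1, the galectin 1 gene, averaged 394 ± 42.5 in EGFP-high cells and 84.9 ± 7.7 in EGFP-negative cells (SD, n = 3 each), and rose by 1.99 (adjusted p = 0.00026, limma). Anxa6 rose by 1.56, the sphingolipid desaturase gene Degs1 by 1.16 and the junctional adhesion gene F11r by 0.68, on the log2 scale. Anxa6 stood apart from the other tested annexins of this list, whose log2 differences were all below 0, from -0.64 for Anxa2 to -0.08 for Anxa8. Of these, Anxa2 and Anxa4 (-0.56) were called lower with the block alone (adjusted p = 0.00395 and 0.0331, limma). The median over the 11 tested annexins and galectins of this list was -0.41. The calls of Ly6d, Pkp1, Pou3f1, Vdr, Degs1 and F11r were each lost without at least 1 array (adjusted p up to 0.0913, 0.126, 0.163, 0.183, 0.148 and 0.161).

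Marker lists of the other cells that the gates could hold were read as sums of intensities over the genes on the array. Basal keratinocyte markers summed to 12744 to 16536 in EGFP-high cells and 14252 to 14892 in EGFP-negative cells, with Itga6 called lower. Sebaceous gland markers summed to 1421 to 1848 and 1537 to 2023, hair matrix markers to 1277 to 1548 and 999.7 to 1413, and fibroblast markers to 1858 to 2175 and 1510 to 1838, in EGFP-high cells and EGFP-negative cells in that order. T cell markers summed to 416.7 to 736 in EGFP-high cells and 349 to 377 in EGFP-negative cells, and Langerhans cell and macrophage markers to 569 to 727 and 394 to 666. Melanocyte markers summed to 614 to 711 in EGFP-high cells and 453 to 498 in EGFP-negative cells, and endothelial markers to 149 to 258.5 and 104 to 192. Besides Itga6, the markers called were Mgst1 of the sebaceous list (log2 difference 1.92, adjusted p = 0.00677), Cd7 of the T cell list (1.10, 0.0143), Mitf of the melanocyte list (1.13, 0.0147) and Fbln1 of the fibroblast list (1.04, 0.0487), all higher in EGFP-high cells (limma). Thy1, in both the T cell and fibroblast lists, was lower (-1.51, adjusted p = 0.0382, limma), and with the block Scd1 of the sebaceous list was lower too (adjusted p = 0.0176). The part of these cells in the results was not tested.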

How the data were processed

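RNA of 6 samples was measured on an Affymetrix mouse array, 3 of EGFP-high and 3 of EGFP-negative keratinocytes, with groups and replicate numbers from the sample titles. The authors deposited 1 linear intensity per probe set and array, and the sources used here do not name their software or background method. Each array had a mean near 150.1 after trimming 2% at each end, which shows a common scaling before deposit, and that scale was kept because the medians differed by less than 1.2 times. Names came from the platform annotation, matched by Entrez identifier to RefSeq (GRCm38.p6) for 10817 of 10833 probe sets with 1 symbol; no symbol changed. The 66 control rows were left out.

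The deposited values were put on a log2 scale after adding 19.3, their overall 25th percentile, and a fold change on this scale understates that of genes near background. Probe sets whose mean on that scale exceeded the 40th percentile were tested with limma 3.58.1 in R 4.3.3 (lmFit, eBayes with intensity trend, two-sided). The fit was tested on simulated data. For medians over genes, the brightest probe set on average stood for each gene. Replicate numbers were taken to pair the arrays, because same-numbered arrays deviated together from their group means. The correlations were 0.336, 0.368 and 0.305, against -0.0629 or below for other pairs. Deviations cancel out within a group, so positive values for same-numbered arrays force negative ones on average for other pairs. The labels do not state the pairing. For members, block values are given where they change a call; for the other lists, as counts with the genes named. Members, lists, roles and stages were chosen with earlier results of these data known. Full values are given for members called with or without the block, the 2 with the highest mean in each role, and Lor, Ivl, Flg, Gja1, Gjb2 and Gjb5. Up to 12 called genes of the other lists were named. The 8 motifs searched were taken from general knowledge of epidermal promoters with the expression values known, and the 3 shown in capitals were picked after their matches were seen. Alternatives changed the added constant, the filter, normalization, trend, block, probe sets and arrays used. The number of arrays limits the precision.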

Additional observations from a re-analysis of the deposited data

How the results depend on the processing

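The count of 8 called differentiation and barrier probe sets, all lower, was 8 with either other constant, a filter at the 60th percentile or no intensity trend, and 6 with no filter or quantile normalization. With the replicate number as a block it was 12, and with the block and no filter, a pairing of choices made after seeing the data, it was 9. It was 3 when probe sets with suffixes other than a plain _at were left out, a setting that removes 21 of the 48. Leaving out each array gave 2 to 12 called, 2 to 11 lower and 0 to 1 higher, the one higher being Ctsl; without both arrays of number 1 there was also 1 higher. No called member changed direction under any alternative run. The median log2 difference of the member genes stayed between -0.35 and -0.13, and moved in each setting by less than the SD of 0.13 between replicate numbers. Over all probe sets 387 were called, 778 with the block and 191 to 499 without 1 array. The other pathway genes called were 10, but 6 with no filter, 20 with the block, 16 with the block and no filter, and 4 to 16 without 1 array. The cause was not tested. Members at or below the control level, such as Ivl and Tgm2, could not be compared at this signal.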
